A study of Homo sapiens with 15 samples.

Results

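The genes described here encode the lysosomal proton pump, the cathepsins and the lysosome-associated membrane proteins. They were taken by symbol: names beginning ATP6V0 or ATP6V1 followed by a subunit letter, ATP6AP1 and ATP6AP2, CTS with 1 further letter, and LAMP1 to LAMP3. Of 61 symbols that matched, 10 were left out for a hyphen and 1 as a pseudogene, and 7 of the 50 kept were numbered copies of a gene without any count. This left 43 genes of 43388, namely 25 pump genes, 15 cathepsin genes and 3 membrane genes. Of these, 36 passed the filter on low counts (21 pump, 12 cathepsin and 3 membrane genes), and a gene low in every group could not pass it.

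The lysosome degrades proteins, lipids and sugars delivered by endocytosis and autophagy. Its acidity comes from the vacuolar proton pump, in which the cytosolic V1 sector hydrolyses ATP and turns a rotor that drives protons through the V0 sector in the membrane. Cathepsins are the lysosomal proteases, most of them matured and active at acid pH, and LAMP1 and LAMP2 are the most abundant glycoproteins of the lysosomal membrane.

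RNA was sequenced from A549, a human lung adenocarcinoma line labelled as wild type. Cells were held for 72 hours at 95% oxygen, called hyperoxia, or at 21% oxygen, called normoxia. In 10 of the libraries, cells first received ethanol vehicle or 1e-05 mM all-trans retinoic acid (ATRA) for 24 hours. At each oxygen exposure there were 2 vehicle and 3 ATRA libraries, and 2 further libraries whose labels give neither ATRA nor vehicle, called untreated here. The labels of 1 more library name another treatment, and it entered no comparison. A549 is a tumour line grown without other lung cells, and in such bulk samples more cells with a transcript and more transcript per cell cannot be told apart. The labels do not say whether replicates were separate cultures, and p-values measure the spread between libraries, which may be technical.

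Counts on genes ranged from 2642377 to 5605072 per library, and 3 counts correspond to between 0.535 and 1.14 CPM, counting error only. Levels are in CPM, which divides each count by the TMM-normalized total of its library (14 labelled libraries). The first untreated hyperoxia library, IA01, stood apart. It had no count on 610 genes that had at least 10 counts in each of the other 13 libraries, and 5 tested members were at 0 in it. Its median correlation with the other libraries was 0.799, against 0.888 to 0.925 for the rest of the libraries (a description across genes). The first hyperoxia ATRA library, IA02, stood apart on the third principal component at -81.8, and had no count on 5 such genes. Where the call of a member was lost when 1 library was left out of the fit, the refitted value is given beside it. Of the epithelial markers, KRT8, KRT18 and KRT7 lay between 508 and 5913 CPM, while EPCAM stayed between 0 and 4.80 CPM. Of 7 leukocyte markers, MRC1 had no count, PTPRC and CD163 had at most 1 count and MARCO and LYZ at most 5 counts in any library, whereas ITGAM was counted in all 14 libraries (up to 31.6 CPM, in IA01) and CD14 in 12 (up to 15.3 CPM). Of 4 fibroblast markers, COL1A1 was counted in 12 libraries (up to 12.2 CPM), and of 3 endothelial markers, CDH5 reached 5.22 CPM and VWF had no count. The summed level of the 6 epithelial markers lay between 7221 and 11880 CPM in normoxia and between 3317 and 7001 CPM in hyperoxia. KRT8, KRT18, CDH1 and EPCAM were lower in hyperoxia within each treatment, and so was KRT19 except with ATRA, where groups overlapped. KRT7 was higher in hyperoxia with ATRA (2569 to 2798 against 1725 to 2316 CPM) and untreated (1845 to 2086 against 1479 to 1733 CPM). With vehicle KRT7 lay at 1632 to 1711 CPM in hyperoxia against 1763 to 1820 CPM in normoxia. The part of these markers in the results below was not tested.

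Levels per kilobase of exon spanned a wide range among the members. ATP6V1F, a rotor subunit of V1, averaged 111 CPM per kb over the 14 libraries, and ATP6V0C, the c subunit of the proton-carrying ring, averaged 97.0 CPM per kb. CTSL and CTSD averaged 91.3 and 65.1 CPM per kb, and CTSB 36.6 CPM per kb. In counts, CTSL, CTSB and CTSD together made up between 75.2% and 82.3% of all cathepsin CPM in each library. At the low end, ATP6V1G3 (a tissue-restricted stalk subunit), CTSE (an aspartic protease) and CTSG (a serine protease of neutrophils) had no count in any of the 15 libraries. ATP6V0A4 and ATP6V0D2, a and d subunits known from kidney and osteoclasts, had at most 20 and 4 counts in a library, ATP6V1G2 at most 8 and CTSO at most 13, and none of these 4 genes was tested. Among genes tested, ATP6V1B1, ATP6V1FNB (a neighbour of ATP6V1F that matched the symbol pattern), CTSK, CTSV, CTSW (which overlaps the more abundant FIBP) and LAMP3 averaged between 1.04 and 4.66 CPM. None of these 6 genes passed the test in any comparison of the main fits, and their fold changes are not given. With vehicle, ATP6V1B1, CTSV, CTSW and LAMP3 gained a call in some alternative fits, and the counts of calls given below for those fits include them.

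Summed over the 25 pump genes, the level lay between 1102 and 1294 CPM in the 7 normoxia libraries and between 1450 and 1581 CPM in the 7 hyperoxia libraries, without overlap. The sum over the 15 cathepsin genes showed another order. It was lowest in hyperoxia with vehicle, at 1354 and 1409 CPM, and highest in hyperoxia with ATRA, between 1881 and 2163 CPM. These sums are descriptions and were not tested.

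**Figure D1:**
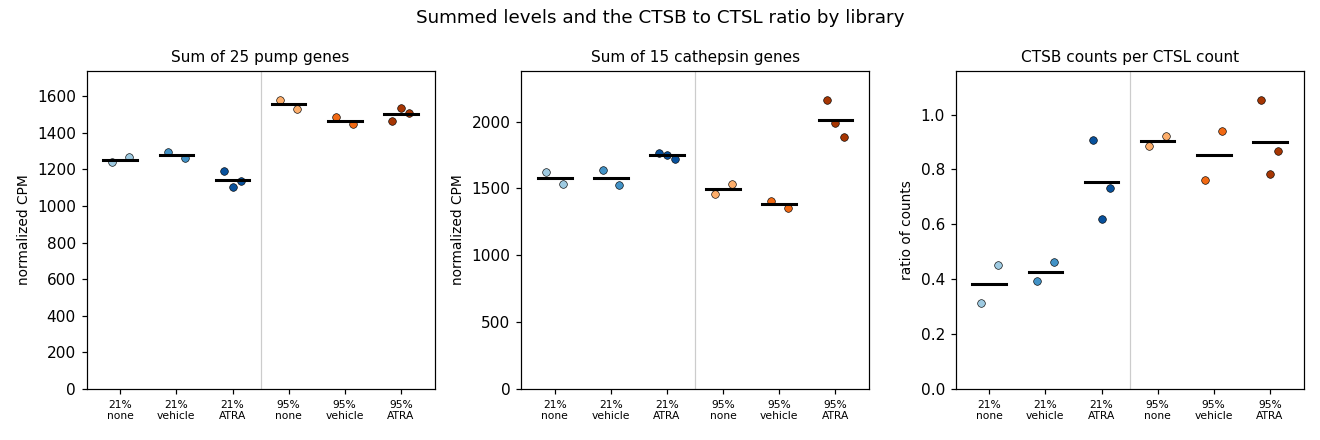
Summed normalized CPM of the pump genes and of the cathepsin genes, and CTSB counts per CTSL count, for each labelled library (points) with group means (lines), by oxygen exposure and treatment. The 7 hyperoxia libraries, from 1450 CPM upward, lie above the 7 normoxia libraries in the pump sum, whereas the cathepsin sum is highest with ATRA in hyperoxia.

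The first comparison asked which members differed between 95% and 21% oxygen in vehicle-treated cells, 2 libraries against 2. Of 36 members tested, 6 rose and 3 fell in hyperoxia (edgeR quasi-likelihood test, adjusted p under 0.05). Among all 14957 genes tested, 8.68% rose and 8.81% fell. The median log2 fold change was 0.11 over 21 pump genes, -0.03 over 12 cathepsin genes and 0.01 over all genes. These class medians and those below include the low-level members whose fold changes are not given. The cathepsin median lay midway between CTSA and the low-level CTSK, so its sign rests on CTSK. The rising members were the pump genes ATP6V0A1, ATP6V0C and ATP6V1F and the cathepsins CTSB, CTSC and CTSS. The falling members were ATP6V1C2, CTSL and CTSZ. Each of these 9 calls was lost without at least 1 of the 4 vehicle libraries. The number of calls was 2 when all 14 libraries, IA01 among them, shared a fit, and 13 in that fit without IA01 and IA02. The same comparison was made in ATRA-treated cells, 3 libraries against 3, where 10 members rose and 1 fell, against a background of 11.4% and 11.3% of genes. There the median log2 fold change was 0.36 over pump genes, 0.13 over cathepsin genes and 0.01 over all genes. Of the 10 rising members 8 were pump genes, which made up 21 of the 36 members tested. In untreated cells, 2 against 2, 6 members rose and 2 fell, with 7.57% of 15339 genes rising and 7.58% falling. The untreated count was 1 without the first normoxia library and 16 without the second hyperoxia library. The median of all genes was shifted by -0.10 in the untreated comparison, against 0.26 for the pump genes and 0.03 for the cathepsin genes.

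The 3 oxygen comparisons use different libraries. ATP6V0C and CTSB rose in each comparison and ATP6V1C2 fell in each comparison. Of the 36 members, 16 had a positive and 4 a negative log2 fold change in all 3 comparisons, called or not. Without library IA01, 16 and 5 did so. The share of all genes with the same sign in all 3 was not computed, so these counts only describe the members. They include low-level members whose fold changes are not given, ATP6V1B1 and CTSV on the negative side and CTSW and LAMP3 on the positive side. The other negative members of the 4, ATP6V1C2 and ATP6V1E2, overlap more abundant genes, so their values are uncertain. When all 7 hyperoxia libraries were set against all 7 normoxia libraries, ATP6AP2, ATP6V0C and ATP6V1A lay wholly above and ATP6V1C2 wholly below, while 6.34% of all genes lay wholly above and 7.31% wholly below.

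**Figure D2:**
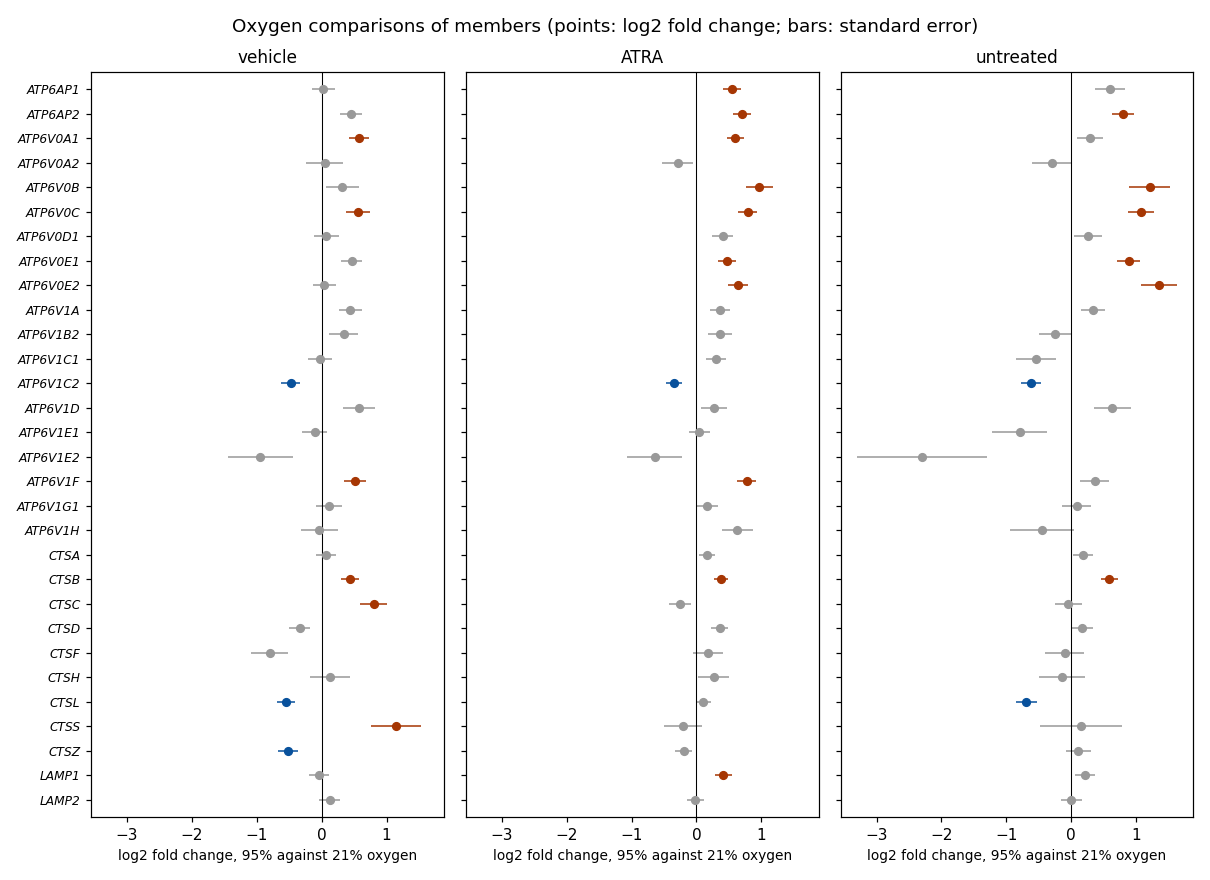
Log2 fold change (points) and standard error (bars) for 95% against 21% oxygen in vehicle, ATRA and untreated libraries, for the 30 members averaging at least 10 CPM. Brown points rose and blue points fell at an edgeR adjusted p under 0.05, and grey points did not pass. ATP6V0C and CTSB are brown and ATP6V1C2 is blue in each of the 3 panels. ATP6V1C2 overlaps the more abundant PDIA6, so its values are uncertain.

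In the V0 sector, ATP6V0C had the clearest separation by oxygen. This gene, on chromosome 16 from 2513726 to 2520218 (GRCh38), encodes the c subunit that carries protons through the membrane. Its level in normoxia was 82.7 and 112 CPM in untreated, 97.3 and 117 CPM in vehicle, and 119, 72.4 and 95.8 CPM in ATRA libraries. In hyperoxia it was 209.5 and 202 CPM in untreated, 163 and 154 CPM in vehicle, and 170.0, 167 and 160.5 CPM in ATRA libraries. Every hyperoxia library was above every normoxia library. The log2 fold change was 0.56 with vehicle (standard error 0.18, edgeR adjusted p = 0.0321), 0.79 with ATRA (standard error 0.15, edgeR adjusted p = 0.000448) and 1.08 untreated (standard error 0.20, edgeR adjusted p = 0.00170). The vehicle call was lost without any 1 of the 4 vehicle libraries, with log2 fold changes between 0.41 and 0.68 and edgeR adjusted p between 0.0722 and 0.337. The untreated value without the first normoxia library was 0.83 (edgeR adjusted p = 0.0529).

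ATP6V0B encodes the c'' subunit of the same ring and lies on chromosome 1 from 43974960 to 43978295. It had 15.8 and 25.4 CPM in untreated, 25.02 and 34.8 CPM in vehicle and 22.4, 18.4 and 28.9 CPM in ATRA libraries in normoxia. In hyperoxia the levels were 54.5 and 40.1 CPM untreated, 32.1 and 42.9 CPM with vehicle and 45.3, 47.5 and 44.6 CPM with ATRA. The vehicle groups overlapped (log2 fold change 0.32, standard error 0.25, edgeR adjusted p = 0.462), whereas the ATRA groups did not. With ATRA the log2 fold change was 0.97 (standard error 0.21, edgeR adjusted p = 0.00207). In untreated cells it was 1.21 (standard error 0.31, edgeR adjusted p = 0.0162), and it was 0.96 without library IA01 (edgeR adjusted p = 0.0665) and 0.86 without the first normoxia library (edgeR adjusted p = 0.237).

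The e subunits are small membrane proteins of V0. ATP6V0E1, on chromosome 5 from 172983771 to 173035445, lay between 74.1 and 98.7 CPM in all normoxia libraries and between 95.0 and 166 CPM in hyperoxia, the lowest of these being library IA02. It rose by 0.47 on the log2 scale with ATRA (standard error 0.14, edgeR adjusted p = 0.0156) and by 0.89 untreated (standard error 0.18, edgeR adjusted p = 0.00330). With vehicle the log2 fold change was 0.46 and did not pass (standard error 0.16, edgeR adjusted p = 0.0559). The ATRA call was lost without any 1 of 3 ATRA libraries, IA02 not among them, at values between 0.38 and 0.42 and edgeR adjusted p between 0.0598 and 0.0763. A small nucleolar RNA inside this gene, SNORA74B, held 11.7% as many counts. ATP6V0E2, on chromosome 7 from 149872964 to 149880713, had 172 CPM in library IA01 and 77.2 CPM in the other untreated hyperoxia library, against 44.5 and 53.7 CPM in normoxia. Its untreated log2 fold change of 1.36 (standard error 0.28, edgeR adjusted p = 0.00381) was 0.65 without IA01 (edgeR adjusted p = 0.0711) and 1.18 without the first normoxia library (edgeR adjusted p = 0.0660). With ATRA, where levels were 61.8, 47.1 and 61.9 CPM in normoxia and 96.8, 85.7 and 83.6 CPM in hyperoxia, it rose by 0.64 (standard error 0.15, edgeR adjusted p = 0.00341). With vehicle its log2 fold change was 0.04.

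The a subunits form the stator and the proton half-channels. ATP6V0A1, on chromosome 17 from 42458878 to 42522579, had 74.4 and 99.1 CPM in normoxia with vehicle and 124 and 136 CPM in hyperoxia with vehicle. With ATRA it had 77.7, 71.8 and 75.2 CPM in normoxia and 117, 114 and 108 CPM in hyperoxia. Neither pair of groups overlapped. It rose by 0.57 with vehicle (standard error 0.16, edgeR adjusted p = 0.0147) and by 0.60 with ATRA (standard error 0.13, edgeR adjusted p = 0.00236), while the untreated log2 fold change was 0.29 (edgeR adjusted p = 0.346), with 78.7 CPM in IA01 and 121.5 CPM in the other hyperoxia library, and 0.57 without IA01 (edgeR adjusted p = 0.0709). The vehicle call was lost without either hyperoxia vehicle library or the first normoxia one, at values between 0.36 and 0.61 and edgeR adjusted p between 0.0672 and 0.327. ATP6V0A2, the Golgi and endosome form, and ATP6V0D1, the d subunit, did not pass in any comparison. Their log2 fold changes were between -0.29 and 0.04 and between 0.07 and 0.40 in the oxygen comparisons.

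Of the V1 genes, ATP6V1F was the member that rose with both vehicle and ATRA. This rotor subunit, on chromosome 7 from 128862856 to 128865847, had 73.7 and 80.3 CPM in normoxia and 113 and 107.5 CPM in hyperoxia with vehicle. With ATRA it had 65.2, 60.2 and 57.3 CPM in normoxia and 87.4, 120.5 and 106 CPM in hyperoxia. No hyperoxia library of either treatment reached down to normoxia. The log2 fold changes were 0.51 (standard error 0.17, edgeR adjusted p = 0.0398) and 0.77 (standard error 0.14, edgeR adjusted p = 0.000387). The vehicle value was between 0.42 and 0.56 without any 1 of the vehicle libraries (edgeR adjusted p between 0.155 and 0.303) and 0.50 without the third hyperoxia ATRA library (edgeR adjusted p = 0.0529). In untreated cells library IA01, at 66.3 CPM, lay among the normoxia libraries and the log2 fold change was 0.36 (edgeR adjusted p = 0.289). Without IA01 it was 0.70 and passed (edgeR adjusted p = 0.0332).

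ATP6V1C2 was the pump gene that fell. It encodes an isoform of the C subunit, which bridges V1 and V0 and takes part in their reversible assembly, and lies on chromosome 2 from 10720943 to 10785110. In normoxia its level was 225 and 186 CPM untreated, 161 and 184 CPM with vehicle and 165, 181 and 183 CPM with ATRA. In hyperoxia it was 129 and 139 CPM untreated, 136.5 and 112 CPM with vehicle and 146, 124 and 145 CPM with ATRA, below every normoxia library. The log2 fold change was -0.48 with vehicle (standard error 0.15, edgeR adjusted p = 0.0290), -0.35 with ATRA (standard error 0.12, edgeR adjusted p = 0.0452) and -0.62 untreated (standard error 0.15, edgeR adjusted p = 0.0133). The vehicle call was lost without the second library of either exposure, at -0.37 and -0.40 (edgeR adjusted p = 0.309 and 0.246). The ATRA call was lost without any ATRA library but IA02, at values from -0.39 to -0.31 and edgeR adjusted p from 0.0509 to 0.114, and the untreated call without IA01 (-0.57, edgeR adjusted p = 0.0663) or the first normoxia library (-0.51, edgeR adjusted p = 0.131). The gene overlaps PDIA6, which held 159.5% as many counts, and the strand setting of the counting is not given in the sources used here. The level of ATP6V1C2 and its fall in hyperoxia are therefore uncertain, and the part of PDIA6 in them was not tested. Its other isoform ATP6V1C1 did not pass, with log2 fold changes of -0.03, 0.31 and -0.54, the last of them 0.01 without IA01, where it had 30.4 CPM against 80.5 CPM in the other untreated hyperoxia library.

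The catalytic and stalk subunits of V1 did not pass the test in any oxygen comparison. ATP6V1A, the catalytic A subunit, lay between 50.2 and 66.8 CPM in normoxia and between 71.0 and 91.5 CPM in hyperoxia without overlap, and its log2 fold changes were 0.44, 0.36 and 0.33 with vehicle, with ATRA and untreated. The edgeR adjusted p of these was 0.102, 0.0859 and 0.249, and the untreated value without IA01 was 0.13. ATP6V1B2 (the B subunit), ATP6V1D (rotor), ATP6V1E1 and ATP6V1G1 (stalk) and ATP6V1H (a regulatory subunit) had log2 fold changes between -0.80 and 0.63. The most negative of these, ATP6V1E1 untreated, rested on library IA01, at 11.2 CPM against 53.8 CPM in the other hyperoxia library, and was -0.04 without it. Without IA01 the untreated value of ATP6V1D went from 0.63 to 0.22, and those of ATP6V1H and ATP6V1G1 changed sign, from -0.45 to 0.32 and from 0.08 to -0.07. ATP6V1D overlaps GPHN, which held 46.3% as many counts. ATP6V1E2, which overlaps the more abundant RHOQ, had a log2 fold change of -0.94 with vehicle (edgeR adjusted p = 0.227) and no count in library IA01.

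ATP6AP1 and ATP6AP2 are accessory proteins of the pump, and the second is also known as the prorenin receptor. ATP6AP2, on chromosome X from 40580970 to 40606848, had 59.7 and 66.2 CPM in untreated, 72.3 and 66.3 CPM in vehicle and 58.4, 66.5 and 75.5 CPM in ATRA libraries in normoxia. In hyperoxia it had 120.0 and 98.4 CPM untreated, 98.6 and 90.9 CPM with vehicle and 104, 113 and 109 CPM with ATRA, above every normoxia library. It rose by 0.70 with ATRA (standard error 0.14, edgeR adjusted p = 0.000669) and by 0.80 untreated (standard error 0.17, edgeR adjusted p = 0.00481), and had a log2 fold change of 0.45 with vehicle (standard error 0.17, edgeR adjusted p = 0.0640). The untreated value without the first normoxia library was 0.68 (edgeR adjusted p = 0.0868). ATP6AP1 rose with ATRA, by 0.55 (standard error 0.14, edgeR adjusted p = 0.00839), from 104, 74.3 and 80.4 CPM to 112, 145 and 123.5 CPM. Without the second hyperoxia ATRA library the value was 0.42 (edgeR adjusted p = 0.0602). With vehicle it was 0.02. Untreated it was 0.60 and did not pass (standard error 0.23, edgeR adjusted p = 0.0932), and 0.26 without IA01.

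**Figure D3:**
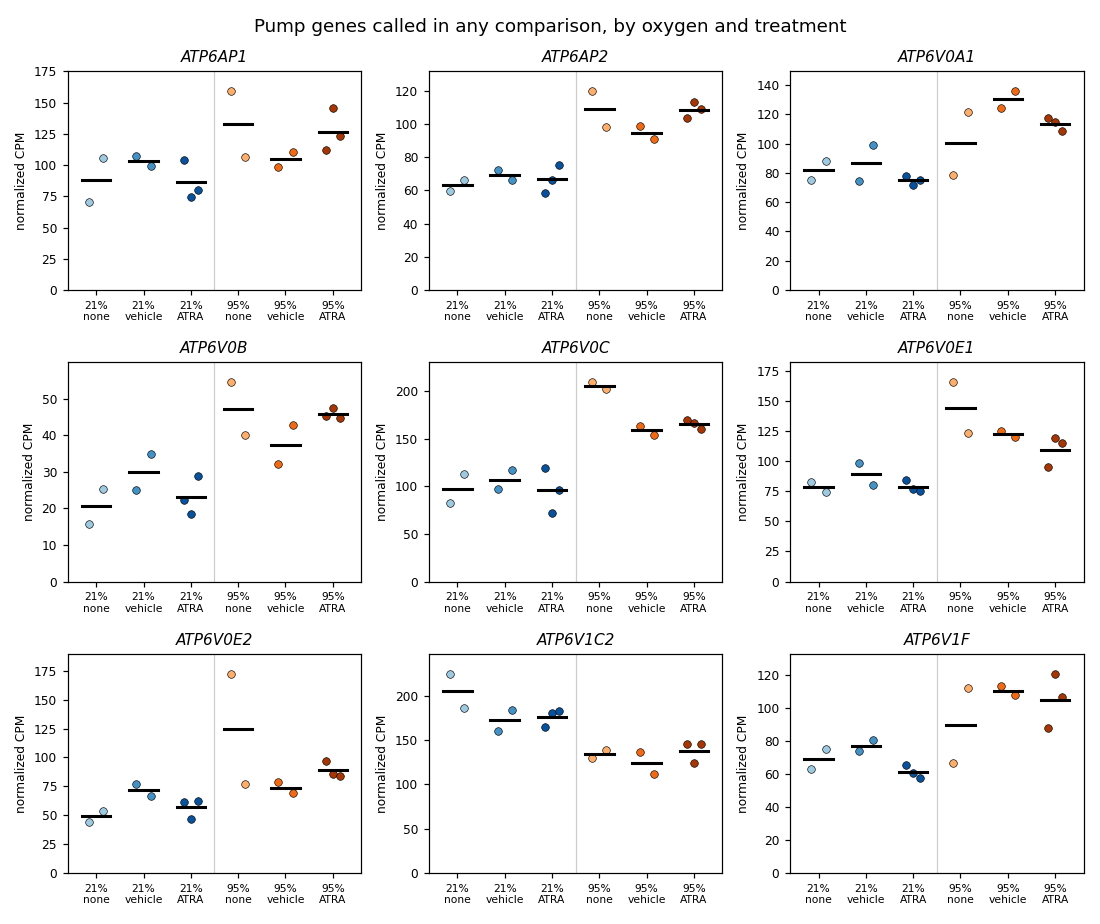
Normalized CPM of the 9 pump genes called in any comparison, for each labelled library (points) with group means (lines). The left side of each panel holds 21% and the right side 95% oxygen. The 7 hyperoxia libraries lie above the 7 normoxia libraries for ATP6AP2 and ATP6V0C and below them for ATP6V1C2, which overlaps the more abundant PDIA6. Library IA01 is the highest point for ATP6V0E2, at 172 CPM.

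Among the cathepsins, CTSB rose in hyperoxia in each treatment. CTSB is a cysteine protease with both endopeptidase and carboxypeptidase activity, encoded on chromosome 8 from 11842524 to 11868087. It had 246.5 and 271 CPM in untreated and 276 and 265 CPM in vehicle libraries in normoxia, and 361.5 and 416 CPM and 358 and 374 CPM in the same treatments in hyperoxia. With ATRA it had 456, 381 and 392 CPM in normoxia and 595, 497 and 503 CPM in hyperoxia. None of these pairs of groups overlapped. In hyperoxia it rose by 0.44 with vehicle (standard error 0.14, edgeR adjusted p = 0.0268), by 0.38 with ATRA (standard error 0.11, edgeR adjusted p = 0.0155) and by 0.59 untreated (standard error 0.14, edgeR adjusted p = 0.00859). The vehicle call was lost without any 1 vehicle library, at values between 0.38 and 0.45 and edgeR adjusted p between 0.125 and 0.224. The ATRA value was 0.29 without IA02 (edgeR adjusted p = 0.0732), and 0.33 and 0.32 without the second or the third normoxia library (edgeR adjusted p = 0.0514 and 0.0705). The untreated value was 0.68 without IA01 (edgeR adjusted p = 0.00743) and 0.48 without the first normoxia library (edgeR adjusted p = 0.130).

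CTSL, a cysteine endopeptidase and the most abundant cathepsin here in CPM in 13 of the 14 libraries, went the other way. The gene lies on chromosome 9 from 87726119 to 87731469. It had 786 and 600.4 CPM untreated and 701 and 572.5 CPM with vehicle in normoxia, against 408 and 451 CPM and 470.0 and 398 CPM in hyperoxia. It fell by 0.55 on the log2 scale with vehicle (standard error 0.14, edgeR adjusted p = 0.00830) and by 0.69 untreated (standard error 0.16, edgeR adjusted p = 0.00733). The vehicle value was -0.43 without the first normoxia library and -0.47 without the second hyperoxia library (edgeR adjusted p = 0.127 for each), and the untreated value was -0.52 without the first normoxia library (edgeR adjusted p = 0.0946). The ATRA groups overlapped, at 502, 614.5 and 535 CPM in normoxia and 565, 634 and 579.9 CPM in hyperoxia, with a log2 fold change of 0.11 (standard error 0.12, edgeR adjusted p = 0.558).

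The ratio of CTSB counts to CTSL counts, chosen after the values were seen, was between 0.314 and 0.463 in the 4 normoxia libraries without ATRA. It was between 0.762 and 0.940 in the 4 hyperoxia libraries without ATRA. With ATRA it was between 0.620 and 0.908 in normoxia and between 0.784 and 1.05 in hyperoxia, so that the ATRA groups overlapped. The ratio does not depend on library size, and it was not tested.

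Of the 3 oxygen comparisons, CTSC, CTSS and CTSZ passed the test with vehicle alone. CTSC, a dipeptidyl peptidase that activates serine proteases, had 29.9 and 33.9 CPM in normoxia and 54.9 and 56.9 CPM in hyperoxia (log2 fold change 0.80, standard error 0.21, edgeR adjusted p = 0.00869). CTSS, an endopeptidase best known from antigen-presenting cells, had 5.21 and 9.58 CPM in normoxia and 21.5 and 12.9 CPM in hyperoxia (log2 fold change 1.14, standard error 0.38, edgeR adjusted p = 0.0441). The summed level of 7 leukocyte markers was 5.21 and 5.68 CPM in normoxia and 6.63 and 12.7 CPM in hyperoxia with vehicle, where ITGAM alone lay between 6.36 and 11.1 CPM against 2.66 and 3.82 CPM in normoxia, and its part in the CTSS values was not tested. CTSZ, a carboxypeptidase, had 150.5 and 153 CPM in normoxia and 115 and 97.6 CPM in hyperoxia (log2 fold change -0.52, standard error 0.16, edgeR adjusted p = 0.0268). Without 1 vehicle library CTSC was between 0.69 and 0.88 (edgeR adjusted p between 0.0543 and 0.123), CTSS was 0.72 or 0.79 without the first library of either exposure (edgeR adjusted p = 0.441 and 0.358), and CTSZ lay between -0.56 and -0.43 in the 3 refits that lost its call (edgeR adjusted p between 0.0914 and 0.248). CTSS also lost its call without the first normoxia ATRA library (1.14, edgeR adjusted p = 0.0525) or the third hyperoxia ATRA library (1.13, edgeR adjusted p = 0.05001). In untreated cells the log2 fold changes of these 3 genes were -0.05, 0.15 and 0.11, and library IA01 was the lowest for CTSS, with 15 counts, and the highest for CTSZ, at 181 CPM. Without IA01 the values were -0.05, 0.99 and -0.27, and none passed. Whether the vehicle values differ from those of the other treatments is given by the interaction below for ATRA and was not tested for untreated cells.

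CTSA, CTSD, CTSF and CTSH did not pass any oxygen comparison. CTSD, the main lysosomal aspartic protease, had log2 fold changes of -0.34 with vehicle (edgeR adjusted p = 0.170), 0.36 with ATRA (edgeR adjusted p = 0.0517) and 0.16 untreated (edgeR adjusted p = 0.556). CTSF, a cysteine protease, had -0.80, 0.18 and -0.10. CTSA, a serine carboxypeptidase that also protects other lysosomal enzymes, had 0.06, 0.16 and 0.17, and overlaps PLTP, which held 14.4% as many counts. CTSH, an aminopeptidase, had 0.12, 0.26 and -0.14. Without IA01 the untreated values of CTSA, CTSF and CTSH were 0.29, -0.27 and 0.08.

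Of the membrane genes, LAMP1 rose with ATRA. The gene, on chromosome 13 from 113297239 to 113323672, had 97.5, 104 and 98.6 CPM in normoxia and 142, 130.1 and 127 CPM in hyperoxia with ATRA. The groups did not overlap (log2 fold change 0.42, standard error 0.13, edgeR adjusted p = 0.0217), and the call was lost in 5 of 10 refits without 1 library, at values between 0.36 (without IA02, edgeR adjusted p = 0.0621) and 0.40 and edgeR adjusted p up to 0.0793. With vehicle it had 99.4 and 101 CPM in normoxia and 111 and 85.1 CPM in hyperoxia, a log2 fold change of -0.04. LAMP2 lay between 88.5 and 137 CPM in all 14 libraries, and its log2 fold changes in the oxygen comparisons were 0.13, -0.02 and 0.00. The untreated values of LAMP1 and LAMP2 were 0.21 and 0.00, and 0.09 and -0.07 without IA01.

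The second pair of comparisons asked what ATRA changed at each oxygen exposure, 3 ATRA against 2 vehicle libraries. The vehicle libraries are those of the vehicle oxygen comparison. In normoxia 2 of 36 members rose and 0 fell, where 0.816% of all genes rose and 0.435% fell (edgeR). There 6 members had an unadjusted edgeR p under 0.05, as did 1315 of all 14957 genes. In hyperoxia 3 rose and 0 fell, where 1.52% of all genes rose and 0.695% fell (edgeR). There 7 members had an unadjusted edgeR p under 0.05, as did 2019 of all 14957 genes. The members that rose were cathepsins, and no pump gene was called at either exposure by edgeR. The summed epithelial markers were at 7669 and 8567 CPM with vehicle and between 8621 and 11880 CPM with ATRA in normoxia, and at 3317 and 3495 CPM with vehicle and between 5516 and 7001 CPM with ATRA in hyperoxia, and their part in these results was not tested. The pump medians were -0.22 in normoxia and 0.01 in hyperoxia, and the cathepsin medians 0.28 and 0.52.

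CTSB rose at both exposures. Its vehicle levels of 276 and 265 CPM in normoxia compare with 456, 381 and 392 CPM with ATRA, and those of 358 and 374 CPM in hyperoxia with 595, 497 and 503 CPM. The log2 fold changes were 0.60 (standard error 0.13, edgeR adjusted p = 0.0138) and 0.54 (standard error 0.12, edgeR adjusted p = 0.0200). Every ATRA library was above every vehicle library of its exposure. The normoxia call was lost without either vehicle library or the first ATRA library, at values between 0.52 and 0.62 and edgeR adjusted p between 0.0816 and 0.250. The hyperoxia call was lost without either vehicle library (0.50 and 0.57, edgeR adjusted p = 0.368 and 0.1998) or IA02 (0.45, edgeR adjusted p = 0.0814).

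CTSS had 22.4, 37.8 and 23.2 CPM with ATRA in normoxia against 5.21 and 9.58 CPM with vehicle, and the log2 difference was 1.84 (standard error 0.36, edgeR adjusted p = 0.00778). Without the first vehicle library, which had 15 counts on the gene, the value was 1.52 (edgeR adjusted p = 0.220). The 7 leukocyte markers summed to between 14.6 and 17.2 CPM with ATRA in normoxia and between 11.1 and 15.3 CPM with ATRA in hyperoxia, with CD14 between 10.4 and 15.3 CPM with ATRA in normoxia against 1.39 and 3.02 CPM with vehicle, and PTPRC, CD163 and MRC1 at or near 0. Their part in the CTSS values was not tested. In hyperoxia the ATRA levels were 20.7, 21.8 and 29.3 CPM against 21.5 and 12.9 CPM with vehicle, and the groups overlapped (log2 fold change 0.50, standard error 0.33, edgeR adjusted p = 0.555).

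CTSD had 620.2, 458 and 434 CPM with ATRA in hyperoxia against 256 and 288 CPM with vehicle. The gene lies on chromosome 11 from 1752755 to 1763927 and had a log2 fold change of 0.89 (standard error 0.15, edgeR adjusted p = 0.00131), with no overlap between groups. Without library IA02, its highest, the value was 0.71 (edgeR adjusted p = 0.00361), and without the first vehicle library 0.80 (edgeR adjusted p = 0.0781). In normoxia it had 419, 342 and 419 CPM with ATRA and 330.2 and 357 CPM with vehicle (log2 fold change 0.20, edgeR adjusted p = 0.823). CTSH had 33.0, 35.2 and 29.0 CPM with ATRA in hyperoxia against 19.3 and 11.8 CPM with vehicle (log2 fold change 1.07, standard error 0.28, edgeR adjusted p = 0.0432). Its levels in normoxia were 27.1, 31.5 and 22.4 CPM against 13.2 and 14.9 CPM, and it was not called there (log2 fold change 0.93, standard error 0.28, edgeR adjusted p = 0.148). The CTSH call was lost in 8 of the 10 fits that left out 1 library, at values between 0.74 and 1.44 and edgeR adjusted p between 0.0523 and 0.597.

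**Figure D4:**
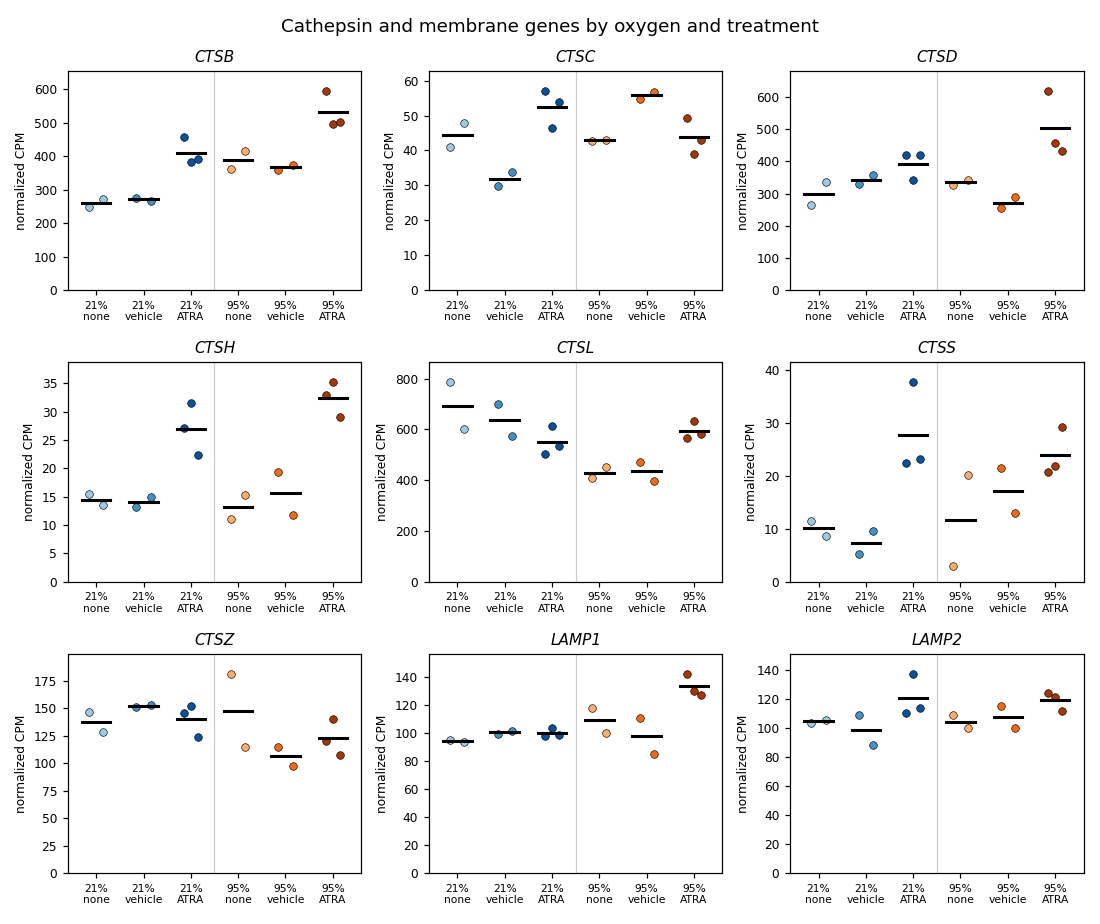
Normalized CPM of the 8 cathepsin and membrane genes called in any comparison, and of LAMP2, for each labelled library (points) with group means (lines). CTSB is higher in hyperoxia within each treatment and higher with ATRA than with vehicle at each oxygen exposure, CTSL is lower in hyperoxia without ATRA, and CTSD is highest in library IA02, at 620.2 CPM.

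The difference between the ATRA effects at the 2 oxygen exposures was tested by an interaction term. By edgeR 0 of 36 members passed, where 0.140% of all genes did. Of the members, 8 had an unadjusted edgeR p under 0.05, as did 1078 of all 14957 genes. DESeq2 gave an adjusted p to 15 of the members, of which 2 passed, against 3.13% of the 3068 genes with one. These were CTSL (log2 0.66, DESeq2 adjusted p = 0.00939, edgeR 0.275) and CTSD (log2 0.70, DESeq2 adjusted p = 0.0243, edgeR 0.341). The interaction of CTSC was -1.06 (standard error 0.27, edgeR adjusted p = 0.182) and that of CTSS -1.35 (standard error 0.48, edgeR adjusted p = 0.472). That of CTSZ was 0.32 (standard error 0.21, edgeR adjusted p = 0.8245).

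The other genes of the lysosome were taken from lists by function, and the counts below stand against the shares of all genes called, 8.68% higher and 8.81% lower with vehicle, 11.4% and 11.3% with ATRA and 7.57% and 7.58% untreated. The medians of all genes were 0.01, 0.01 and -0.10. The untreated counts below depended on single libraries. In every list but the other lysosomal proteases, some untreated refits without 1 library called genes lower. The untreated counts of rising genes also changed in such refits, except for the cystatins. Of 15 tested genes of the lysosomal transcription factors and of the nutrient-sensing kinase complex that sits on the lysosome, 5 rose and 0 fell in hyperoxia with vehicle (median log2 fold change 0.61), 5 and 0 with ATRA (median 0.35) and 4 and 0 untreated (median 0.68). TFE3, a transcription factor of lysosomal genes related to TFEB and MITF, had 132 and 135.5 CPM in normoxia and 342 and 372 CPM in hyperoxia with vehicle, a rise of 1.41 (standard error 0.145, edgeR adjusted p = 4.21e-07). RPTOR, a subunit of the kinase complex mTORC1, rose by 0.85 (standard error 0.15, edgeR adjusted p = 0.000301), and FLCN, an activator of the Rag GTPases, by 1.19 (standard error 0.21, edgeR adjusted p = 0.000354). These 3 calls held in each of 10 fits that left out 1 library. TFEB did not pass (edgeR adjusted p = 0.511).

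Of 24 tested hydrolases of sugars, 3 rose and 2 fell with vehicle (median 0.18), 12 rose and 1 fell with ATRA (median 0.39) and 4 rose and 0 fell untreated (median 0.38), so that the vehicle counts were near the share of all genes. The ATRA count of 12 was between 7 and 10 when 1 library was left out. With vehicle IDS rose by 1.20 (edgeR adjusted p = 1.37e-06), GAA by 0.84 (edgeR adjusted p = 0.00164) and GLA fell by 0.95 (edgeR adjusted p = 0.00304), of which the IDS call held in all 10 fits without 1 library and the other 2 in 9 of them. Of 11 lipid hydrolases and transfer proteins, 3, 3 and 2 rose with vehicle, ATRA and untreated, and 0 fell, while the median log2 fold changes were -0.05, 0.23 and 0.16. PSAP, the precursor of the saposins, rose by 0.51 with vehicle (edgeR adjusted p = 0.00616), NPC1 by 0.70 (edgeR adjusted p = 0.0133) and SMPD1 by 1.35 (edgeR adjusted p = 0.0167), and these calls were lost in 2, 4 and 3 of the 10 fits. Of 11 other membrane proteins of the lysosome, 3, 1 and 1 rose and 0 fell (medians 0.19, 0.42 and 0.18). CD68, from 17.4 and 26.4 CPM to 60.4 and 71.5 CPM with vehicle, rose by 1.63 (edgeR adjusted p = 2.25e-05), CD63 by 0.38 (edgeR adjusted p = 0.0415) and TMEM192 by 0.78 (edgeR adjusted p = 0.0494). The CD68 call held in all 10 fits, and those of CD63 and TMEM192 were lost in 5 and 6. CD68 is also used as a macrophage marker. Of the leukocyte markers, ITGAM lay higher in hyperoxia with vehicle as given above, CD14 was between 0.265 and 1.41 CPM there against 1.39 and 3.02 CPM in normoxia, MARCO was at 0, and PTPRC, CD163 and MRC1 were at or near 0. Their part in the CD68 values was not tested.

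In the sorting of lysosomal enzymes by mannose-6-phosphate, 2 of 6 genes rose with vehicle, IGF2R by 0.71 (edgeR adjusted p = 0.00133) and M6PR by 0.45 (edgeR adjusted p = 0.0337), while SORT1 had -0.36 (edgeR adjusted p = 0.190). The IGF2R call held in all 10 fits without 1 library and that of M6PR was lost in 4. With ATRA 3 rose and 1 fell, and untreated 2 rose and 0 fell (medians 0.32, 0.17 and 0.43). Of 9 further pump subunit and assembly genes, 1 rose in each oxygen comparison and 0 fell (medians 0.12, 0.13 and 0.09). With vehicle this was DMXL2, by 0.46 (edgeR adjusted p = 0.0490, lost in 7 of the 10 fits), while RNASEK had 0.37 (edgeR adjusted p = 0.108) and TCIRG1, the a subunit isoform known from osteoclasts, -0.33 (edgeR adjusted p = 0.184). Of 6 other lysosomal proteases, 1 rose and 1 fell with vehicle, 2 and 1 with ATRA and 2 and 0 untreated (medians 0.19, 0.44 and 0.30). With vehicle DPP7 rose by 0.76 (edgeR adjusted p = 0.0471), LGMN, the asparaginyl endopeptidase that processes cathepsins, fell by 0.65 (edgeR adjusted p = 0.0348), and PRCP had -0.37 (edgeR adjusted p = 0.258). The DPP7 and LGMN calls were each lost in 4 of the 10 fits. Of 4 tested cystatins, inhibitors of cysteine cathepsins, 0, 1 and 0 rose and 0 fell (medians -0.88, 0.31 and -1.0017). CST1 had -1.60 (edgeR adjusted p = 0.0919), CST2 -1.62 (edgeR adjusted p = 0.578) and CST3 -0.15 (edgeR adjusted p = 0.644) with vehicle. For ATRA against vehicle, no gene of these 8 lists was called in normoxia, where 0.816% of all genes rose and 0.435% fell. In hyperoxia 1.52% of all genes rose and 0.695% fell. Of the lists, 2 of 24 sugar hydrolases, 1 of 11 lipid genes, 3 of 6 proteases and 1 of 4 cystatins rose there. Of these 7, PSAP kept its call in all 10 fits without 1 library, and the others lost it in 2 to 5.

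TFEB, TFE3 and MITF are known to bind an E-box motif, CACGTG, in the promoters of many lysosomal genes. The 250 bases before the RefSeq start site (GRCh38.p14) were searched for CACGTG and for the longer TCACGTGA that contains it. Both read the same on either strand. Promoters were listed for 28 of the 43 members. CACGTG was in 8 of the 28 (28.6%) and in 6.48% of all 27305 promoters, and TCACGTGA in 4 (14.3%) and in 0.879%. Among members with a promoter that were called in any comparison, CACGTG was in 4 of 14, and among those tested and called in none, in 4 of 9. The 100 bases before the start are shown for the 4 called members that hold it, and for ATP6V0C, which rose in each oxygen comparison and does not. Capitals mark CACGTG or TCACGTGA.
ATP6V0B (chr1:43974860-43974959, plus strand): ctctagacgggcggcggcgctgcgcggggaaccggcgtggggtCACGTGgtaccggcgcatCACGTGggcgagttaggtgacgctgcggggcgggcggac
ATP6V0E2 (chr7:149872864-149872963, plus strand): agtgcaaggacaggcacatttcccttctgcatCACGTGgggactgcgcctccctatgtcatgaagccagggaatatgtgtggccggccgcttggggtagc
CTSD (chr11:1763928-1764027, minus strand): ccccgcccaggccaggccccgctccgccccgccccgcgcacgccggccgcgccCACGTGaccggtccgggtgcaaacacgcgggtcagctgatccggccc
LAMP1 (chr13:113297139-113297238, plus strand): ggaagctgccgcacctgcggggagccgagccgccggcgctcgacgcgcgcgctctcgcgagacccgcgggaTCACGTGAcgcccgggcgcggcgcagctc
ATP6V0C (chr16:2513626-2513725, plus strand): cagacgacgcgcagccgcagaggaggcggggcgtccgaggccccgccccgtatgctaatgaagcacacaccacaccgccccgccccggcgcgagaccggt

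ATP6V0B holds CACGTG at 2 places in these 100 bases, and LAMP1 holds TCACGTGA between 29 and 22 bases before its start and CACGTG at 4 further places upstream of the stretch shown. The other members with CACGTG were ATP6V0D1, ATP6V1G1, CTSA and CTSF, of which the first 3 hold TCACGTGA. In the other lysosomal lists, 15 of 65 promoters (23.1%) hold CACGTG. These matches describe sequence only, since no binding was measured.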

How the data were processed

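RNA was sequenced from 15 A549 libraries. Per the submitters' processing notes and the study's methods, the authors used Trimmomatic 0.38 for trimming, HISAT2 for alignment to the hg38 build, and HTSeq to assign reads to gene symbols. The values deposited by the authors are these raw counts, without normalization. Annotation release, strand and overlap settings are not given in the sources used here. Entries naming no gene, between 75.2% and 78.4% of each table's total, were left out.

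Groups came from the labels, and 14 libraries fell into 6 groups. Counts were tested with edgeR 4.0.16 in R 4.3.3 (filterByExpr with minimum count 10 and total 15, TMM, quasi-likelihood test, Benjamini-Hochberg over all genes tested). The 10 vehicle and ATRA libraries were fitted in 4 groups (14957 genes), and the untreated comparison in a fit of 14 libraries (15339 genes). The standard error is the log2 fold change divided by the root of F. Exon lengths came from GENCODE and positions and promoters from RefSeq. The procedure was tested on simulated data. DESeq2 1.42.0, RLE size factors, no filter, other sets of libraries, a block of library sets and leaving out each library were alternatives, and leaving out IA01 and IA02, and each library for the genes of the other lists, was added after the data were seen. Plots used matplotlib 3.10.9 in Python 3.11.15.

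The members and lists were chosen with earlier results of these data known. Every member is named, and of each other list the up to 3 genes with the smallest p in the vehicle oxygen comparison, besides TFEB and the genes whose overlap is given, which were named after their values were seen.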

Additional observations from a re-analysis of the deposited data

How the results depend on the processing

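The number of members called by oxygen with vehicle was 9. It was 18 when only the vehicle libraries were fitted, 2 with all 14 libraries and 15 with vehicle and ATRA libraries together (5 against 5), and it ranged from 1 to 14 when 1 library was left out. In the 14 libraries without IA01 and IA02 it was 13. With ATRA the oxygen count was 11, from 7 to 11 when 1 library was left out. In untreated cells it was 8, and 0 when the 4 untreated libraries were fitted alone. It ranged from 1 (without the first normoxia library) to 16 (without the second hyperoxia library, which leaves IA01 alone), and was 7 without IA01 and IA02. CTSS, at 0.15 and not called, ranged from -1.80 (edgeR adjusted p = 0.0114) without the second hyperoxia library, a reversed direction with a call, to 0.99 without IA01. The ATRA count in normoxia was 2, 0 with all 14 libraries and 0 to 3 when 1 library was left out. In hyperoxia it was 3, 1 with all 14 libraries, 1 with these but without IA01 and IA02, and 0 to 4 when 1 library was left out. The interaction count was 0, 2 with DESeq2, and 0 to 0 when 1 library was left out. The cause of these changes was not tested, apart from the fewer libraries that some fits hold by construction. A fit of fewer libraries leaves the lone sample of a group assumed to vary like the other groups.

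DESeq2, RLE size factors, no filter and a block of library sets kept the counts in the oxygen comparisons within 1.5 times. No paired analysis was possible because the labels give no replicate numbers, and the library sets were read from the library numbers alone. Of 3743 gene values under the alternatives, 3570 kept their call and direction or were not called in either, 112 lost a call, 60 gained one and 1 reversed. Among those not called in either fit, 155 changed sign. The depth, with 3 counts between 0.535 and 1.14 CPM, left 6 tested members under 5 CPM without a usable fold change. Of these, ATP6V1B1 and CTSV are in the count by oxygen when only the vehicle libraries were fitted. CTSV, CTSW and LAMP3 are in the count with vehicle and ATRA libraries together.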

Other observations

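The library IA10 was labelled with hyperoxia in its title but with another treatment in its characteristics, and it was assigned to no group. Its CPM values, scaled to its own total on genes, were 405 for CTSB, 451 for CTSL and 332 for CTSD. For the pump genes they were 173 for ATP6V0C, 109 for ATP6AP2, 113 for ATP6V1F and 124 for ATP6V1C2. CTSS had 20.4 and CTSH 17.2.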
